A study of Mus musculus with 6 samples.

Results

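Of 53465 genes listed in each count table, 10 are described here, from 3 gene families. They are the S100 genes S100a4, S100a6, S100a10, S100a11 and S100a13, the annexins Anxa1, Anxa2, Anxa3 and Anxa5, and Lgals1, which encodes galectin-1. The genes were chosen by symbol because S100a6 and Lgals1 were higher in the cultures with BMP inhibitors, so every difference of these 10 genes between the groups is a description and carries no test. The cells were mouse embryonic stem cells of the established line Royan B20, grown with LIF on plates coated with 0.1% gelatin and passaged 7 times in R2i. R2i holds 1 µM of a MEK inhibitor, named PD0329501 in the labels, and 10 µM SB431542, which blocks TGF-beta family type I receptors of the activin and TGF-beta branch. The control group (3 libraries) had this medium alone. The BMP-inhibited group (3 libraries) had it together with 250 nM noggin, which binds BMP ligands, and 5 µM dorsomorphin, which inhibits BMP type I receptor kinases and AMPK. Both groups therefore carried the MEK and TGF-beta family inhibitors, the time under BMP inhibitors is not given in the sources used here, and all cultures came from 1 cell line. Libraries of a group are called biological replicates in the labels.

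S100 proteins are small dimeric proteins with paired EF hands, calcium-binding helix-loop-helix folds, and most of them expose a binding surface for a partner when calcium rises. Annexins bind phospholipid membranes in the presence of calcium through a core of repeated domains, and leave a free N-terminal tail that some S100 proteins hold. S100A10 joins ANXA2 in a complex at the plasma membrane, and S100A11 binds ANXA1. Galectin-1 is secreted without a signal peptide and crosslinks beta-galactoside sugars on surface glycoproteins.

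The stretches just before the annotated starts are shown for 4 members that stand for the range of behaviour described below. S100a6 and Anxa2 were more than 4-fold higher in BMP-inhibited cells, S100a11 was the most abundant member, and S100a4 had no counts in any library. They are taken from RefSeq sequences on GRCm38.p6, written 5′ to 3′ on the gene's strand, and end just before the first annotated exon. Capitals mark the AP-1 motif TGANTCA, the TEAD motif GGAATG, the GC box GGGCGG, the TATA box TATAAA and the BMP-SMAD motif GGCGCC on either strand.
S100a6 (chr3:90612644-90612881, plus strand): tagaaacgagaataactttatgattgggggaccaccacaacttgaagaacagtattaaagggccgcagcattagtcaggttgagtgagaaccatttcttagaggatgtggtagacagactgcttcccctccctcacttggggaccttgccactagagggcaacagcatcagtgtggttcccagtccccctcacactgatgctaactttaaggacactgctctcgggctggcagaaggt
Anxa2 (chr9:69453433-69453619, plus strand): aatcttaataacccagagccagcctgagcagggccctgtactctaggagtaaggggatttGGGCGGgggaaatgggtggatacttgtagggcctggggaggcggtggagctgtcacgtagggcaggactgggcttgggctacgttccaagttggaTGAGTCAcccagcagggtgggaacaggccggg
S100a11 (chr3:93520246-93520487, plus strand): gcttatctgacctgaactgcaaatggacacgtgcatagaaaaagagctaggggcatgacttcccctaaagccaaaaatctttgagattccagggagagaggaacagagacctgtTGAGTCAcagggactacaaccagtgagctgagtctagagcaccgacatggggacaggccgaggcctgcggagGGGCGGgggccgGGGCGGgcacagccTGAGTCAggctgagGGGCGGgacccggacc
S100a4 (chr3:90603520-90603769, plus strand): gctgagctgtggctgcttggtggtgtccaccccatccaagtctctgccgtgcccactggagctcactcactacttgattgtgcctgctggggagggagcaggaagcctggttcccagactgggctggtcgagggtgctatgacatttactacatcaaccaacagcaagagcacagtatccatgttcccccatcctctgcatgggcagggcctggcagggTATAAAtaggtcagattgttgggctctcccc
None of the 5 motifs occurred in the S100a6 stretch. The S100a11 stretch held 2 AP-1 motifs and 3 GC boxes, the Anxa2 stretch 1 AP-1 motif and 1 GC box, and the S100a4 stretch a single TATA box. RefSeq windows of 300 bases around the start were matched for 7 members, S100a4, S100a6, S100a11, S100a13, Anxa1, Anxa2 and Anxa5. In these whole windows the AP-1 motif was present in 2 of 7, against 7.8% of 32851 windows of all genes, the TEAD motif in 1 (14.7%), the GC box in 2 (35.7%), the TATA box in 3 (13.6%) and the BMP-SMAD motif in 1 (11.9%). No 2 matches overlapped in the printed stretches, and a match describes the letters of a window only.

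Gene counts totalled 31474666 to 35322844 per library. On log2 CPM (counts scaled to a common library size), correlations were at least 0.9914 within a group and at most 0.9591 between groups. BMP-inhibited replicate 2 lay apart from replicates 1 and 3 on the second principal component (5.5% of the variance), at 27.2 against -20.4 and -4.4. In the fit over 15951 genes, 64.2% passed an adjusted p of 0.05, 32.5% as higher and 31.7% as lower in BMP-inhibited cells, so a passing gene is common in this comparison. The pluripotency genes that define the line were present in every library: 8 of 8 stem cell markers were tested, with a summed level of 4526 to 4700 CPM in control and 4168 to 4386 CPM in BMP-inhibited libraries. Of these 8, Nanog, Esrrb, Tdgf1 and Sox2 fell, with log2 fold changes of -0.47, -0.32, -0.26 and -0.25, Dppa5a rose by 0.83, and 3 did not pass.

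Of the 10 members, 9 had at least 25 counts in every library and passed the filter on low counts in both groups. S100a4 (ENSMUSG00000001020), which marks motile and mesenchymal cells, had 0 counts in all 6 libraries, and a count of 0 allows up to 0.0151 CPM (3 counts over all 6 libraries, counting error only). Of its 584 exon bases, 51.7% are shared on the same strand with Gm42674, an annotated protein-coding gene that runs from S100a3 into S100a4 and itself had 0 counts. Counting that sets ambiguous reads aside would lose reads from the shared stretch, so the 0 rests on the 282 unshared bases.

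On a scale that allows genes to be compared, TMM-scaled CPM divided by the length of all annotated exons in kilobases, S100a11 was the most abundant member in control cells, at 129.6 ± 4.71 CPM per kb (SD, n = 3). Lgals1 followed at 46.5 ± 0.956, S100a10 at 24.0 ± 0.402 and S100a13 at 10.5 ± 0.522 CPM per kb. Anxa5 at 4.30 ± 0.188, Anxa2 at 4.29 ± 0.283 and S100a6 at 3.70 ± 0.364 CPM per kb came next, and the libraries of Anxa2 overlapped those of Anxa5 and those of S100a6, while Anxa5 and S100a6 did not overlap. Anxa1 at 0.915 ± 0.11 and Anxa3 at 0.21 ± 0.022 CPM per kb were the lowest detected members. In BMP-inhibited cells the order began alike, with S100a11 at 217 ± 7.78, Lgals1 at 98.3 ± 4.06 and S100a10 at 46.4 ± 1.74 CPM per kb. S100a6 at 19.9 ± 1.83 and Anxa2 at 17.9 ± 2.84 CPM per kb now stood above S100a13 at 12.8 ± 1.60 and Anxa5 at 7.82 ± 0.253. Anxa1 and Anxa3 were again last, at 4.13 ± 0.416 and 1.63 ± 0.152 CPM per kb. S100a6 and Anxa2 were the only neighbours in this order whose BMP-inhibited libraries overlapped. S100a11 has 5 processed pseudogenes of 90.6% to 99.0% identity over 44.4% to 59.3% of its longest transcript, and reads that align to several places entered no gene's count, so its level is uncertain.

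Levels of all 9 detected members were higher in BMP-inhibited than in control libraries, with no overlap between the groups for 9 of 9. Groups were separate for 68.6% of all tested genes, for 34.5% with the higher level under BMP inhibitors. In the fit over all genes 9 members passed as higher and 0 as lower, beside the background of 32.5% higher. At least 2-fold higher were 5 members, Anxa3, S100a6, Anxa1, Anxa2 and Lgals1 (background 8.01%), and at least 4-fold higher the first 4 of these (background 2.88%). Nothing is read from these shares, since this contrast chose the genes. Those 4 also had the lowest mean levels per kb in control cells among the 9 detected, although the control libraries of Anxa2 overlapped those of Anxa5. The median log2 fold change of the 9 was 1.08, against -0.003 over all genes tested. In these bulk libraries more RNA per cell and more cells of an expressing type cannot be told apart.

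**Figure D1:**
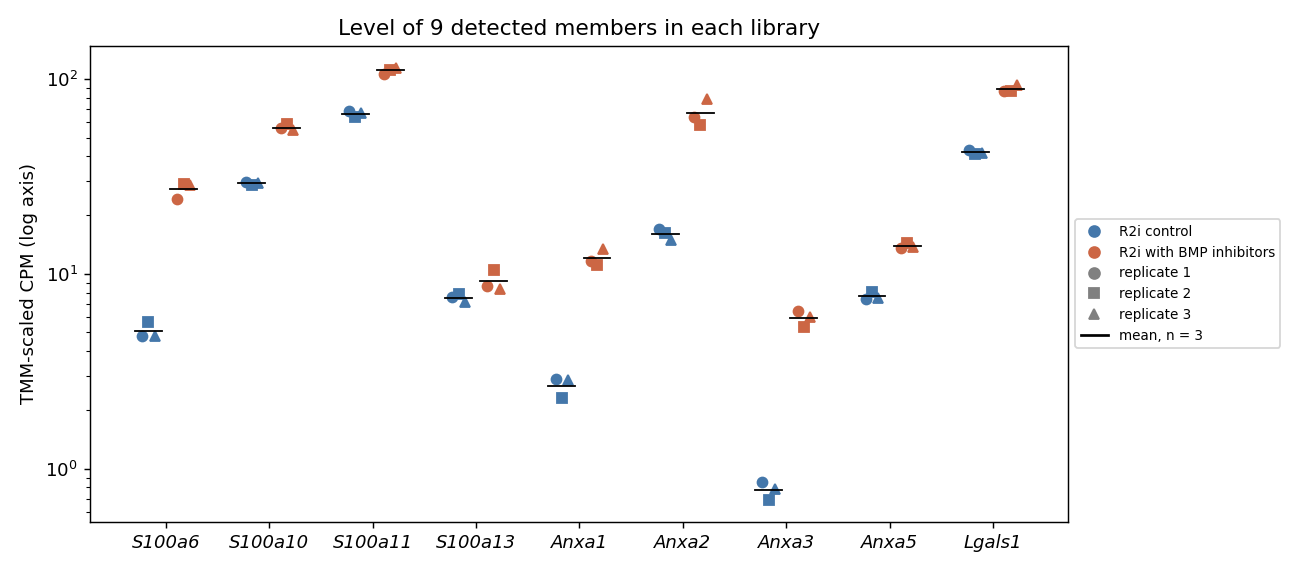
TMM-scaled CPM (log axis) of the 9 detected members in each library, with control libraries in blue, BMP-inhibited libraries in orange, a symbol for each replicate and a line at the mean of 3. S100a4, with 0 counts, is not drawn; the groups are separate for every gene drawn, narrowly so for S100a13.

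Among the S100 genes, S100a6 (ENSMUSG00000001025, chromosome 3, 90612882 to 90624181), which encodes calcyclin, an S100 protein of proliferating epithelial and mesenchymal cells, had the largest difference. Its level was 4.77, 5.63 and 4.76 CPM in control replicates 1 to 3 and 24.3, 28.8 and 28.4 CPM in BMP-inhibited replicates 1 to 3. The lowest BMP-inhibited library was 4.32 times the highest control library. The log2 fold change was 2.42 (SE 0.10), and 2.02% of tested genes had a larger value. Nothing is read from this place, since S100a6 was chosen for its rise.

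S100a10 (ENSMUSG00000041959, chromosome 3, 93555080 to 93564643) encodes the S100 protein that pairs with annexin A2 and is locked in an active form without calcium. It was at 29.6, 28.6 and 29.1 CPM in control and 55.6, 58.5 and 54.4 CPM in BMP-inhibited libraries, which is 0.95 (SE 0.06) higher on the log2 scale. S100a11 (ENSMUSG00000027907, chromosome 3, 93520488 to 93526287), which encodes the partner of annexin A1, was at 68.2, 63.5 and 66.9 CPM in control and 106.5, 111.7 and 114.3 CPM in BMP-inhibited libraries (log2 fold change 0.74, SE 0.05). Replicates of a group were close for both genes, with coefficients of variation of 1.67% and 3.63% in control and 3.75% and 3.59% in BMP-inhibited cells.

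S100a13 (ENSMUSG00000042312, chromosome 3, 90514435 to 90524581), whose protein takes part in release of signal-peptide-less FGF1, moved least. It was at 7.58, 7.89 and 7.15 CPM in control and 8.62, 10.4 and 8.31 CPM in BMP-inhibited libraries. The lowest BMP-inhibited library was only 1.05 times the highest control library, and replicate 2 alone exceeded 10 CPM. The log2 fold change was 0.27 (SE 0.12), and 0.17 without BMP-inhibited replicate 2. S100a13 passed the threshold in the fit over all genes but missed it under 8 of 12 alternatives, that one included.

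Among the annexins, Anxa3 (ENSMUSG00000029484, chromosome 5, 96793339 to 96845966) had the largest difference and the lowest level. The annexin A3 protein is known from granules of phagocytes and from epithelia. Its counts were 29, 25 and 26 in control and 199, 166 and 198 in BMP-inhibited libraries, or 0.849, 0.690 and 0.784 against 6.43, 5.33 and 6.03 CPM. The log2 fold change was 2.93 (SE 0.19), with groups 6.28-fold apart at their nearest libraries. Of the Anxa3 exon bases, 3.1% are shared with a same-strand gene.

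Anxa1 (ENSMUSG00000024659, chromosome 19, 20373428 to 20390944), which encodes a glucocorticoid-inducible regulator of inflammation, was at 2.87, 2.29 and 2.83 CPM in control and 11.63, 11.04 and 13.37 CPM in BMP-inhibited libraries (log2 fold change 2.17, SE 0.13). Anxa2 (ENSMUSG00000032231, chromosome 9, 69453620 to 69491795) encodes the partner of S100A10 in plasminogen binding and membrane traffic. It was at 17, 16.1 and 14.9 CPM in control and 63.8, 58.1 and 78.7 CPM in BMP-inhibited libraries, a log2 fold change of 2.06 (SE 0.10). Both genes were lowest in replicate 2 and highest in replicate 3 of the BMP-inhibited libraries. Anxa2 had the widest spread of all members there, with a coefficient of variation of 15.9%, where the median of 10791 genes with means of 1 to 100 CPM was 8.24%. Of the Anxa2 exon bases, 2.6% are shared with an antisense gene.

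Anxa5 (ENSMUSG00000027712, chromosome 3, 36448923 to 36475894), whose protein binds phosphatidylserine and serves as a probe of dying cells, differed less. It was at 7.40, 8.03 and 7.51 CPM in control and 13.6, 14.4 and 13.7 CPM in BMP-inhibited libraries (log2 fold change 0.86, SE 0.09). Lgals1 (ENSMUSG00000068220, chromosome 15, 78926725 to 78930465), for galectin-1, was at 42.95, 41.4 and 41.6 CPM in control and 87.1, 86.3 and 93.0 CPM in BMP-inhibited libraries. Its log2 fold change was 1.08 (SE 0.05), with coefficients of variation of 2.06% in control and 4.13% in BMP-inhibited cells. BMP-inhibited replicate 2 had no common place among the members: it was the lowest of its group for 4 of 9 and the highest for 4 of 9.

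Known protein partners moved by unequal amounts. The ratio of Anxa2 to S100a10 mRNA per kb was 0.187, 0.183 and 0.166 in control and 0.373, 0.323 and 0.470 in BMP-inhibited libraries. Per kb of annotated exons, S100a10 thus exceeded Anxa2 in all 6 libraries. Under BMP inhibitors this order depends on those lengths. In CPM not divided by length, S100a10 exceeded Anxa2 in every control library. In BMP-inhibited replicates 1 and 3 Anxa2 was the higher, at 63.8 against 55.6 and 78.7 against 54.4 CPM. In replicate 2 the values were 58.1 for Anxa2 and 58.5 CPM for S100a10. The ratio of Anxa1 to S100a11 was 0.00705 ± 0.000625 in control and 0.0190 ± 0.00159 in BMP-inhibited cells (SD, n = 3), so S100a11 far exceeded Anxa1 in both groups.

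The other genes of the 3 families did not all move the same way, beside 32.5% of all tested genes higher and 31.7% lower. Among 11 further listed S100 genes only S100a1, S100a14 and S100a16 had enough counts to test. S100a2, which lies near S100a6, was not listed and did not pass the filter on low counts. S100a1, an S100 gene best known from muscle, was at 10.5, 9.85 and 9.92 CPM in control and fell to 1.87, 1.96 and 2.35 CPM in BMP-inhibited libraries (-2.29 on the log2 scale, SE 0.14, edgeR adjusted p = 1.11e-09). S100a14, an epithelial S100 gene, rose from 0.192 to 0.940 CPM (2.27, SE 0.46, edgeR adjusted p = 0.000403), and S100a16 rose from 1.24 to 2.13 CPM (0.78, SE 0.25, edgeR adjusted p = 0.0109). S100a14 passed the filter on low counts only because of the BMP-inhibited libraries. Its entry into the test, and with it the direction of its call, was thus largely set by the filter. With no count filter its log2 fold change was 2.26 (edgeR adjusted p = 1.47e-06). Leaving out control replicate 1 or BMP-inhibited replicate 3 took S100a16 below the threshold, with log2 fold changes of 0.66 (adjusted p = 0.0539) and 0.64 (adjusted p = 0.0547). The inflammatory genes S100a8 and S100a9, the glial gene S100b and S100g had 0 counts in all libraries.

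Of 8 other annexins 6 were tested, and 3 rose, 1 fell and 2 did not pass. Their median log2 fold change was 0.13. Anxa8 rose most, from a mean of 9.54 ± 0.10 to 31.4 ± 1.64 CPM, or by 1.72 on the log2 scale (SE 0.08, edgeR adjusted p = 5.9e-11), and Anxa11, with a long proline-rich tail, rose by 0.57 (SE 0.06). Anxa6, the most abundant annexin per kb, had means of 203 ± 1.57 and 224 ± 4.59 CPM, a difference of 0.14 in log2 that passed (adjusted p = 0.0052) but not with library totals only (0.08, adjusted p = 0.0705). Anxa7 was lower by a log2 fold change of -0.13 (adjusted p = 0.0146), a call lost without control replicate 1 or 3 (adjusted p = 0.0507 and 0.0598). Anxa4 and Anxa9 had log2 fold changes of 0.12 and -0.29 and did not pass.

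Of 9 other galectin-family genes with a row in the files, 7 were tested, with 4 higher, 2 lower and 1 not past the threshold, and a median of 0.26. Lgals9, which encodes a tandem-repeat galectin, rose from 6.06, 5.46 and 6.48 CPM to 27.2, 21.1 and 29.6 CPM, or by 2.12 on the log2 scale (SE 0.12, edgeR adjusted p = 8.14e-10). Lgals7 and Lgals3 rose by 1.13 (SE 0.27) and 0.77 (SE 0.08), and Lgalsl by 0.26. Lgals8, whose product binds damaged endosomes, fell from 22.3 ± 0.619 to 12.2 ± 0.863 CPM (-0.86, SE 0.08, edgeR adjusted p = 1.99e-07), and Lgals4, an intestinal epithelial galectin, had a log2 fold change of -0.55 (SE 0.16).

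**Figure D2:**
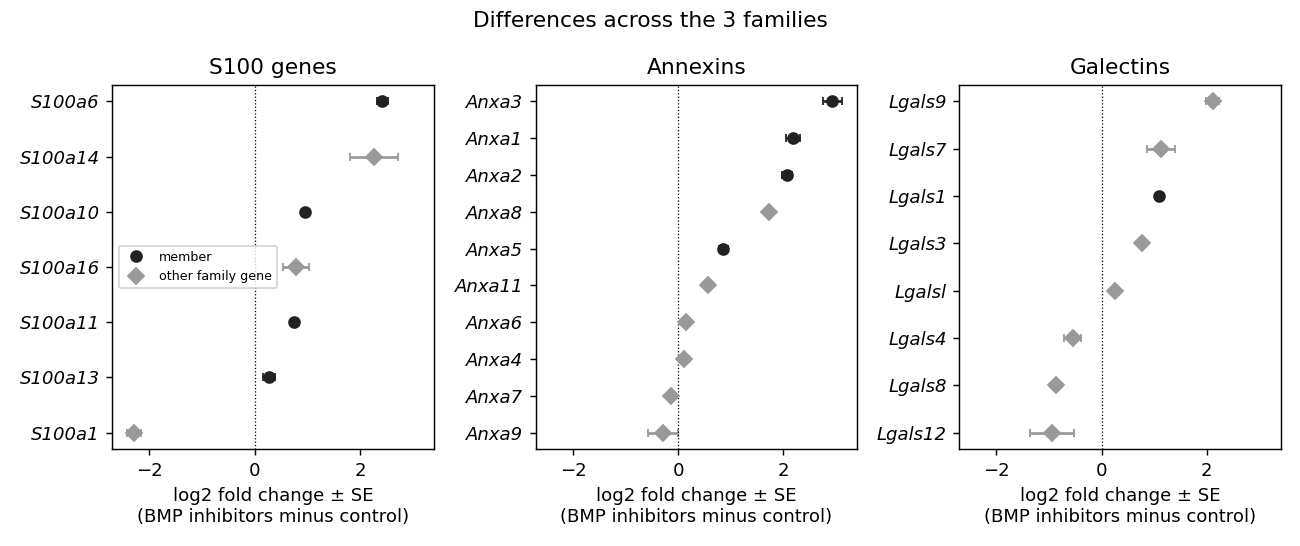
Log2 fold change (BMP-inhibited minus control) with its standard error for every tested S100, annexin and galectin gene, with the described members as black circles and other family genes as grey diamonds. S100a1 at -2.29 is the lowest point, and Anxa3 at 2.93 the highest.

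These differences altered the make-up of each family. Shares are of the listed genes of a family, so S100a2 is left out. Counted per kb, S100a11 supplied 70.6% ± 0.779 of the S100 transcripts in control and 72.1% ± 0.866 in BMP-inhibited cells (SD, n = 3), ranges of libraries that overlapped. The share of S100a6 went from 2.02% ± 0.251 to 6.59% ± 0.377, and that of S100a1 from 7.94% ± 0.160 to 0.985% ± 0.100. The share of S100a13 went from 5.75% ± 0.392 to 4.24% ± 0.485, although its own level was higher. Among annexins, Anxa1, Anxa2, Anxa3 and Anxa5 together held 8.09% ± 0.267 of the family's transcripts in control and 19.1% ± 1.29 in BMP-inhibited cells. In control cells Anxa2 and Anxa5 held about equal shares, 3.57% ± 0.250 and 3.58% ± 0.16, and in BMP-inhibited cells Anxa2 held 10.9% ± 1.36 and Anxa5 4.76% ± 0.26. Anxa6 went from 57.7% ± 0.221 to 46.6% ± 1.16 and remained the leading annexin. Lgals1 held 61.9% ± 0.480 and 69.1% ± 0.953 of galectin transcripts. These shares depend on the annotated exon lengths, and as parts of a whole they cannot move independently.

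**Figure D3:**
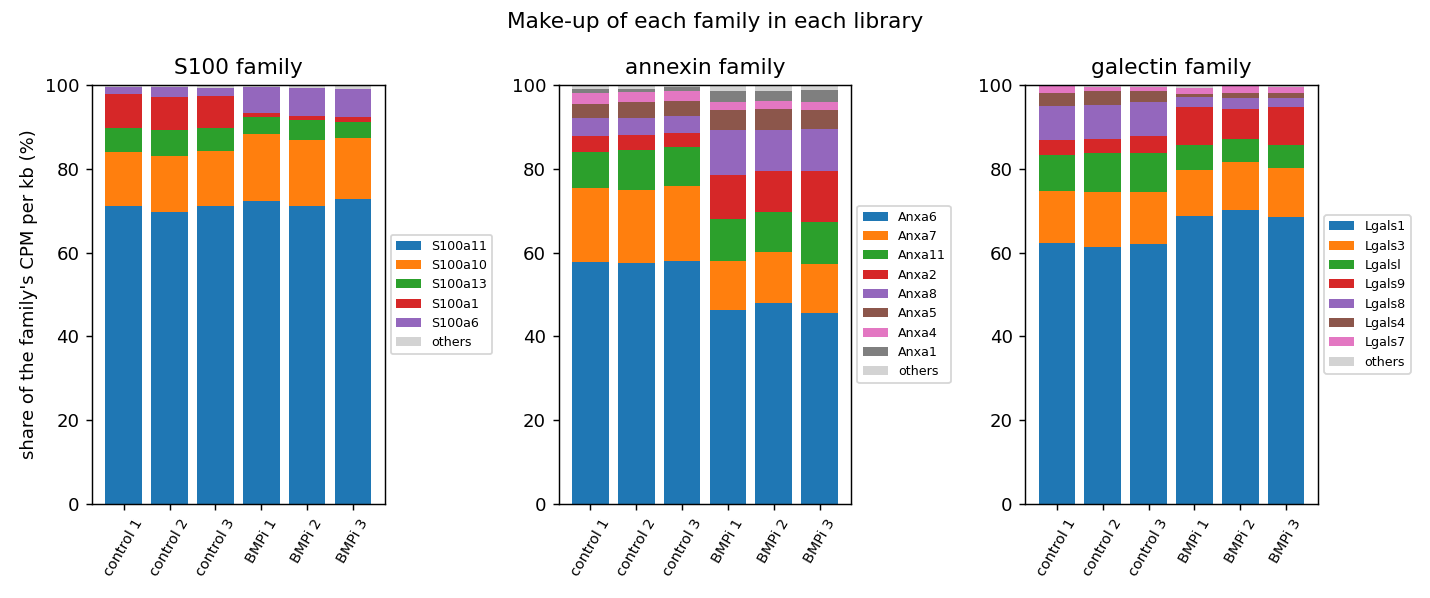
Share (%) of the summed CPM per kb of each family's listed genes taken by each gene in each of the 6 libraries, with genes under 1.5% everywhere pooled as others. The S100a1 band narrows from 7.94% to 0.985% on average and the Anxa2 band widens from 3.57% to 10.9%, with replicates of a group alike.

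Of 30 genes for binding partners, receptors and membrane-repair proteins, 23 were tested, 14 rose, 4 fell and 5 did not pass, with a median of 0.30. Over all genes tested 32.5% were higher and 31.7% lower. Those that fell were Capn2, Plat, Sri and Capn1, with log2 fold changes of -0.62, -0.45, -0.30 and -0.16. Fgf1, Ager and Trpv5, counted as risers, passed the filter on low counts only because of the BMP-inhibited libraries. The 6 with the smallest p all rose. Dysf and Myof, for the ferlins dysferlin and myoferlin that act with annexins in membrane repair, went from means of 6.94 ± 0.634 to 19.1 ± 0.718 CPM (1.46 in log2, SE 0.10, edgeR adjusted p = 3.22e-09) and from 10.9 ± 0.174 to 24.7 ± 4.03 CPM (1.18, SE 0.10). Gca, for the EF-hand protein grancalcin, rose by 1.13 (SE 0.10), and Lgals3bp, a secreted galectin ligand, by 2.56 (SE 0.28) from 0.465 ± 0.114 CPM. Plgrkt, a plasminogen receptor, rose by 0.66 (SE 0.09), and Myh9, the non-muscle myosin heavy chain bound by several S100 proteins, by 0.37 (SE 0.05). Ahnak, a large scaffold bound by the S100A10 and ANXA2 complex and chosen after its value was seen, differed by -0.08 in log2 (SE 0.08, edgeR adjusted p = 0.416). The formyl peptide receptor genes Fpr1 and Fpr2, targets of annexin A1, had 0 counts in all libraries. Capn2 shares 27.1% of its exon bases with an antisense gene, Gca 20.4%, Capn1 11.8% and Dysf 4.2%. The strand setting of the counting is not given in the sources used here.

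All 5 S100 members lie on chromosome 3, as most S100 genes do, in a pair of blocks, with 2896 kb between S100a6 in the one and S100a11 in the other. The block with S100a13, S100a4 and S100a6 also holds S100a1, S100a14, S100a16, S100a8 and S100a9 and spans 184.7 kb, and S100a11 and S100a10 lie 28.8 kb from each other in the other block. S100a1 and S100a13 are transcribed away from each other from starts with 42 bases between them. Over this gap the ratio of S100a13 to S100a1 transcripts per kb was 0.698, 0.778 and 0.699 in control and 4.47, 5.17 and 3.44 in BMP-inhibited libraries. Within the block, S100a16 rose with S100a6, while S100a4, S100a8 and S100a9 had no counts. S100a14 was higher too, but was tested only because of its counts in BMP-inhibited libraries. Within 100 kb of the 10 members lay 78 annotated genes besides the 9 detected members, a number that includes S100a4. Of the 78, 23 were tested, 9 rose, 8 fell and 6 did not pass, with a median of 0.06. Over all genes tested 32.5% were higher and 31.7% lower. Around S100a13, Snapin had a log2 fold change of -0.48 (SE 0.06) and Ints3 of 0.26 (SE 0.04). Near Lgals1, 3 of 6 tested neighbours rose and 3 fell, with Nol12 at 0.45 and Gga1 at -0.36. Near S100a11, 2 of 2 tested neighbours besides S100a10 rose, with Gm37245, also near S100a10, at 1.07 (SE 0.14) and Tchh at 0.43 (SE 0.13). Next to Anxa3, Fras1, an extracellular matrix gene, fell from 1.01 to 0.149 CPM. Ice2 near Anxa2 and Ccna2 near Anxa5 had log2 fold changes of -0.36 and -0.27.

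**Figure D4:**
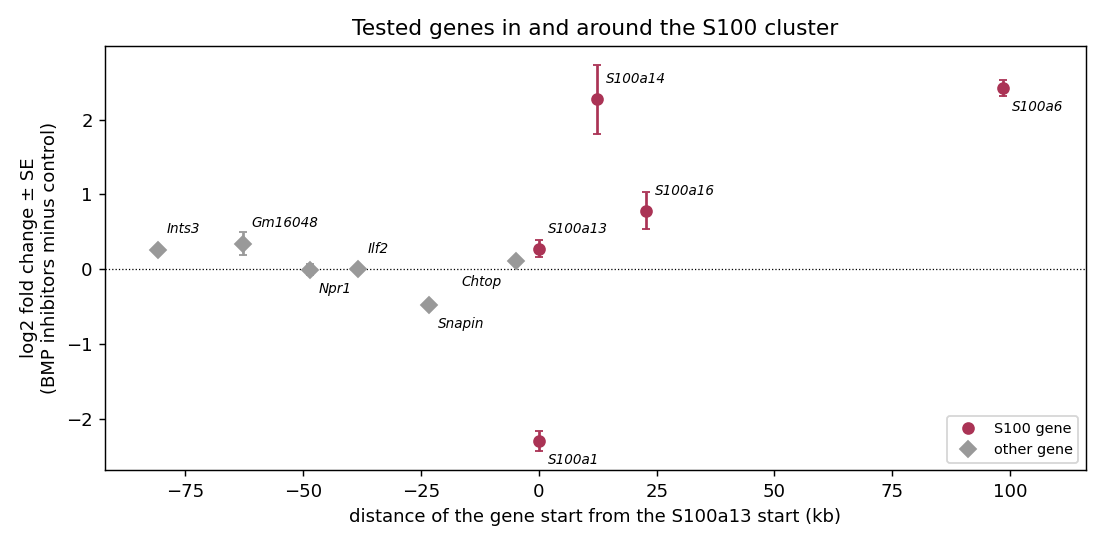
Log2 fold change with its standard error for each tested gene within 100 kb of S100a13, S100a4 or S100a6, placed by the distance of its start from the S100a13 start in kb, with S100 genes in red and others in grey. S100a1 and S100a13 share a position and lie at -2.29 and 0.27, while S100a14 and S100a6 exceed 2.

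Markers of epithelial trophectoderm and of other cell types are given next, beside 32.5% of all tested genes higher and 31.7% lower. Trophectoderm was not the only list with rises and no falls. Of 10 trophectoderm markers 8 were tested, 7 rose and 0 fell, and their summed level was 166 to 172 CPM in control and 319 to 407 CPM in BMP-inhibited libraries. Most of the control sum was Tfap2c, which did not pass, at 128 ± 1.2 and 137 ± 9.06 CPM. Log2 fold changes of the 7 that rose ran from 1.45 for Krt7 to 5.92 for Hand1, with Krt8 at 2.31 (SE 0.10) and Krt18 at 2.70 (SE 0.10). Cdx2 and Elf5 had 2 and 11 counts in the control libraries together and 43 and 14 in the BMP-inhibited ones, too few to test. Hand1 had 10 counts in control libraries and 579 in BMP-inhibited ones, and passed the filter on low counts only because of the latter. The part of trophectoderm cells in the members' levels was not tested.

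Of 12 fibroblast and mesenchyme markers 6 were tested, 4 rose and 0 fell, with summed levels of 92.3 to 95.2 and 113 to 121 CPM, most of it Vim. Col1a1 rose from 133 to 329 counts per group, by 1.43 on the log2 scale (SE 0.20, edgeR adjusted p = 1.59e-05), and Vim and Postn rose too, while Thy1 and Pdgfrb did not pass. Col3a1 had 0 and 24 counts and Col1a2 had 6 and 20, too few to test. Dcn, Lum, Prrx1 and Twist2 had 1, 0, 0 and 0 control counts and 1, 1, 3 and 2 BMP-inhibited counts, while Acta2, which rose, had 0 and 226 and Postn 2 and 47. Of 8 immune cell markers 2 were tested, 2 rose and 0 fell, namely Cd68 by 0.51 on the log2 scale and Csf1r from 5 to 90 counts per group. Adgre1, Lyz2 and Tyrobp had 0 counts in all libraries, and Ptprc had 3 and 5 counts per group. The summed level of 17.4 to 18.7 and 24.1 to 29.9 CPM came mostly from Cd68. Of 10 endoderm markers 7 were tested, 3 rose and 2 fell, with summed levels of 32.5 to 34.99 and 24.2 to 25.7 CPM. Of 6 endothelial markers 4 were tested, 3 rose and 0 fell, with summed levels of 46.4 to 49.5 and 42.5 to 54.1 CPM, mostly Tek, which did not pass. Those that rose were Tie1 from 7 to 311 counts per group, Kdr from 9 to 63 and Cldn5 from 17 to 52, while Cdh5 had 3 and 31 counts, too few to test, and Emcn had 0. Tie1, Kdr, Cldn5, Acta2, Postn and Csf1r passed the filter on low counts only because of the BMP-inhibited libraries. Their entry into the test, and with it the direction of their calls, was thus largely set by the filter. Nothing is read from these calls or from the lack of falls. The part of these cell types in the members' levels was not tested.

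Across the 6 libraries the profiles most like that of S100a6, by Pearson's r of log2 CPM among 8347 other named genes above a floor of 4 in mean log2 CPM, were those of Ehd4, Llgl2, Prcc and Rtkn (r = 0.9997, 0.9997, 0.9996 and 0.9995). For Lgals1 they were Eif3b, Ppp2r2d, Spin1 and Eng (r = 0.9999, 0.9998, 0.9998 and 0.9997). With only 2 groups of 3 libraries such values mostly measure the difference between groups: 1625 genes exceeded 0.95 with S100a6 and 1767 with Lgals1. S100a6 and Lgals1 correlated with each other at 0.9935, which ranked Lgals1 145th for S100a6. Eng, which encodes the TGF-beta family co-receptor endoglin, was at 42.4 and 121.5 CPM, and Ehd4, for a membrane-remodelling ATPase, at 39.2 and 62.96 CPM in control and BMP-inhibited cells.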

How the data were processed

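Strand-marking libraries of poly(A) RNA were sequenced from 3 control and 3 BMP-inhibited cultures, grouped by sample title. The authors deposited 1 table of raw counts per gene for each library. Without giving roles, the submitters' processing notes list the build GRCm38.p6 and the tools HTSeq 0.9.1, STAR 2.6.1, DESeq2, CASAVA 1.8.2 and cutadapt 1.4.2. The annotation release and strand setting are not given in the sources used here. The 5 rows naming no gene took 25.58% to 26.38% of reads and were left out. Symbols, coordinates and exon lengths came from GENCODE M21, which matched 53360 of 53465 identifiers.

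Genes passing edgeR's default filter (minimum count 10, total 15) were TMM-scaled and fitted with the quasi-likelihood F test of edgeR 4.0.16, without a block, two-sided, with Benjamini-Hochberg adjustment over 15951 genes and a threshold of 0.05. Standard errors came from the coefficient and its F statistic. CPM are TMM-scaled and given as mean ± SD over 3 libraries. The fit, run in R 4.3.3, was tested on simulated data; lists were summarised in Python 3.11.15. Alternatives were DESeq2 1.42.0, limma-voom (limma 3.58.1), library totals, other filters, a replicate block and leaving out each library. Exon overlaps were found with bedtools 2.31.1 and near-identical copies with BLAST 2.17.0 (identity of at least 90% over at least 20% of the longest transcript).

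The members, gene lists and tests were chosen with earlier results of these data known. Named genes are the 10 members, up to 6 genes with the smallest p from each related list, up to 4 tested neighbours per locus by smallest p, and the 4 most similar profiles for S100a6 and Lgals1. Partner genes that fell, or that passed the filter only because of the BMP-inhibited libraries, are named as well. Markers named were chosen after their values were seen.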

Additional observations from a re-analysis of the deposited data

How the results depend on the processing

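The counts of all genes and of the members stayed within 1.5 times the reported value under all 12 alternatives, with 8 or 9 members higher and 0 lower. Calls over all genes ranged from 4537 to 5606 higher and from 4526 to 5692 lower; library totals only gave 4537 higher and 5692 lower, which moves the share of higher among called genes from 50.6% to 44.4%. Of 358 recomputed log2 fold changes of named genes, 345 kept their direction and side of the threshold, 13 lost the call and 0 reversed. Of those 13 losses, 8 were S100a13, whose log2 fold change ranged from 0.17 to 0.34 and adjusted p from 0.0311 to 0.189. The number of other S100 genes that were higher went from 2 to 1 under the stricter count filter, which leaves S100a14 untested, and ranged from 1 to 2 when a library was left out. The number of other annexins that were lower ranged from 0 to 1 when a library was left out. Same-numbered libraries did not deviate together (r = -0.044, 0.008 and 0.029), so the numbers were not taken as pairs; with a replicate block 5149 genes were higher, 5061 lower and 9 members higher. S100a14 rests on 5 to 44 counts per library and was tested only because of its counts in BMP-inhibited ones. Of the 11 other listed S100 genes, 8 had too few counts to test, 4 of them 0 in every library.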
